A study of Mus musculus with 6 samples.

Results

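The 10 genes described here encode actin or proteins that bind it, and they were followed through the loss of CAF-1 or of HOXA9 activity in mouse myeloid progenitors. They were chosen by name (Tmsb4x, Tmsb10, Pfn1, Actb, Actg1, Cfl1, Arpc1b, Coro1a, Lcp1 and Msn) out of 27998 gene columns in the single-cell count table. Levels are given in CPM, a gene's UMIs (unique molecular identifiers, 1 per captured transcript) per 1000000 UMIs of the library, and all 10 passed the minimum of 20 CPM on average across the 6 libraries, as 4789 genes did. The cells were immortalised granulocyte-macrophage progenitors (iGMPs) from C57BI/6 Lys-GFP mice, whose GFP reporter is driven by the lysozyme promoter, held in self-renewal by HOXA9 fused to an estrogen receptor domain (ER-HoxA9) in the presence of estradiol at 150 ng/ml and stem cell factor. CAF-1 OFF was a clone with an IPTG-inducible shRNA against Chaf1b, which encodes part of the chromatin assembly factor CAF-1, in 500 µM IPTG with estradiol left in the medium, sampled at 0, 48 and 96 h. HOXA9 OFF was a clone with a control vector that holds a spacer in place of an shRNA (shCTRL), from which estradiol was withdrawn, sampled at the same times, so that all 6 libraries carried the ER-HoxA9 transgene and a lentiviral vector of the inducible shRNA type and both 0 h libraries had estradiol. Each arm was 1 clone and each time point 1 library of sorted live cells, so no difference below has a replicate check, and the clone and the treatment cannot be told apart between the arms.

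Actin moves between a pool of monomers and filaments. Thymosin beta proteins hold monomers in reserve, profilin loads them onto growing filament ends, cofilin severs old filaments, the Arp2/3 complex starts branches, and coronin, plastin and the ezrin-radixin-moesin proteins tie filaments to each other, to Arp2/3 or to the membrane. In granulocytes this machinery drives crawling toward a target, adhesion and the uptake of particles, and actin is among the abundant proteins of the mature neutrophil.

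The 5872 cells that passed the limits on genes and mitochondrial UMIs numbered 473 to 1510 per library, and each library held 3524285 to 5589486 UMIs. Mean UMIs per cell were 5921 to 6514 in CAF-1 OFF but went from 8859 to 3782 to 2334 in HOXA9 OFF, so that CPM and levels per cell part ways in that arm. The limits removed 0.198% to 66.2% of a library's barcodes, the most in the HOXA9 OFF 0 h library, and 16 barcode sequences occurred in more than 1 library. Chaf1b stood at 35.6, 3.22 and 6.49 CPM at 0, 48 and 96 h of CAF-1 OFF, beside 51.5, 15.3 and 1.13 CPM in HOXA9 OFF, while Hoxa9 RNA does not check estradiol withdrawal, which acts on the fusion protein. The 6 progenitor markers (Cd34, Kit, Flt3, Mpo, Prtn3, Ctsg) were all present at 0 h and summed to 7142 CPM and 6286 CPM in the CAF-1 OFF and HOXA9 OFF clones.

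RefSeq promoter windows, the 250 bases before a transcript start in GRCm38.p6, were held for 9 members in 13 windows. For Actb no window was held. The stretches shown are those of the windows that share no 20 bases with a GENCODE transcript, for the monomer-binding gene with the largest difference (Tmsb4x), the actin gene whose window was held (Actg1), the Arp2/3 subunit that was higher in HOXA9 OFF (Arpc1b) and the severing factor that was not (Cfl1). Capitals mark the motifs searched on both strands, namely the CArG box (the serum response factor motif known from muscle and cytoplasmic actin genes, by name), the TATA box as TATAAA or as the variant TATATAA, the core that Sp1 binds (GGGCGG), the CCAAT box, and the ETS family motifs GAGGAAGT and CCGGAAGT. Only copies of GGGCGG overlapped, in Actg1. The Tmsb4x stretch lies before a start inside the annotated gene, the other 3 before the gene.
Tmsb4x, chrX:167209316-167209426, minus strand: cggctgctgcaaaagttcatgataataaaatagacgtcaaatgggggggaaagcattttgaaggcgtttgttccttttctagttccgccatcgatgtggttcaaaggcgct
Actg1, chr11:120348543-120348676, minus strand: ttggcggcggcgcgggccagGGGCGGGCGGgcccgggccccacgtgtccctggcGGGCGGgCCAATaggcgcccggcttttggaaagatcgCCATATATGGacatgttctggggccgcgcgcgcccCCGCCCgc
Arpc1b, chr5:145114006-145114214, plus strand: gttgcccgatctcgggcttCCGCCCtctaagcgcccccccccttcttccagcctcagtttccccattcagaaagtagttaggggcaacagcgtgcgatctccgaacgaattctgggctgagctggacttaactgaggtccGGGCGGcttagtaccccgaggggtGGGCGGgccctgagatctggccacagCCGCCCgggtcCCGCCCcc
Cfl1, chr19:5490205-5490454, plus strand: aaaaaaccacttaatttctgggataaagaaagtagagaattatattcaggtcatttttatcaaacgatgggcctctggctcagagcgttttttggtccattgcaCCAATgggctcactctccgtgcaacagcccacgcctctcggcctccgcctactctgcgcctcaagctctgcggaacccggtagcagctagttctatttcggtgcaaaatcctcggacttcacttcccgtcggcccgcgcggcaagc

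The whole Actg1 window held 1 CArG box, a motif present in 1.47% of the 32851 windows of the table, together with 6 copies of GGGCGG and 1 CCAAT. Among the members, GGGCGG was in 10 of the 13 member windows against 32.7% of all windows, with 7 copies for Arpc1b. CCAAT was in 2 member windows, those of Actg1 and Cfl1, against 33.8% of all windows. TATATAA was in a single member window, that of the internal Tmsb10 start at chr6:72958233-72958482, against 3.04% of all. TATAAA (12.4% of all windows), GAGGAAGT (2.44%) and CCGGAAGT (2.88%) were in no member window. The GC content of the window was 79.2% for Actg1, 68.4% for Arpc1b and 52% for both Tmsb4x and Cfl1, beside a median of 52.4% over all windows. These are letter matches in short windows and say nothing of factor binding.

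At 0 h the 10 genes already made up 1.00% of all UMIs in the CAF-1 OFF clone and 0.914% in the HOXA9 OFF clone, and the clones gave them like levels. HOXA9 OFF at 0 h over CAF-1 OFF at 0 h ranged from 0.854-fold (Actg1) to 1.02-fold (Pfn1, Msn), with none of the 10 at 2-fold either way, where 0.752% of all genes were at least 2-fold higher and 0.146% at least 2-fold lower. Tmsb4x led the order at 0 h with 2574 and 2223 CPM in the CAF-1 OFF and HOXA9 OFF clones. Actb followed at 1759 and 1542 CPM and Cfl1 at 1383 and 1362 CPM, whereas Lcp1 at 156 and 157 CPM and Msn at 72.1 and 73.7 CPM closed it. Arpc1b, Actg1 and Pfn1 lay close together between Cfl1 and Coro1a, and at HOXA9 OFF 0 h the counting intervals of Arpc1b (1066 CPM) and Pfn1 (1038 CPM) overlapped. Counts are 3′ end counts with 1 UMI per molecule, so these levels were compared between genes without a correction for length.

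**Figure D1:**
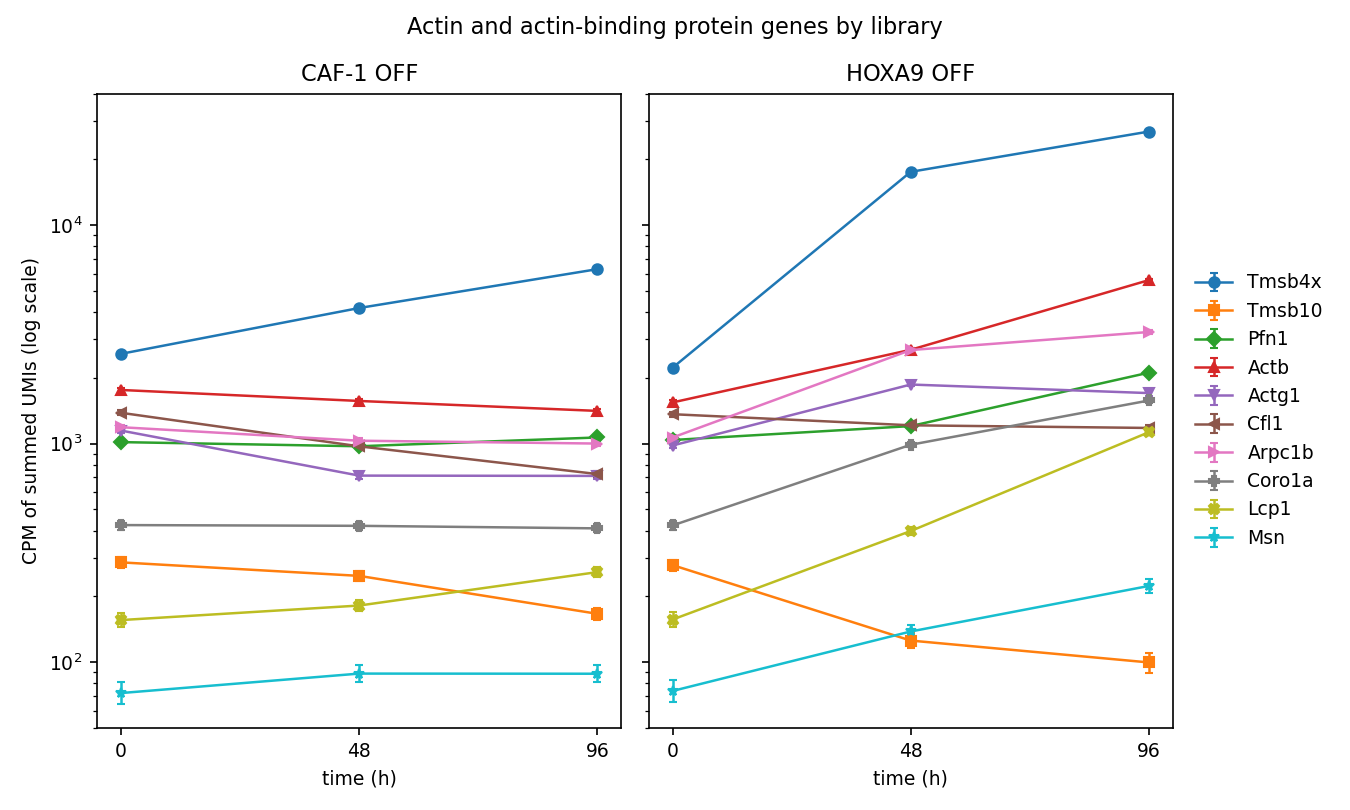
CPM of summed UMIs on a log axis against hours of treatment for the 10 genes in the CAF-1 OFF and HOXA9 OFF libraries, 1 library per point, with exact 95% counting intervals as bars. Tmsb4x is the highest line in both arms, with 26787 CPM at 96 h of HOXA9 OFF and 6283 CPM at 96 h of CAF-1 OFF, and Tmsb10 is the one gene at least 2-fold lower, in HOXA9 OFF (under 2-fold with TMM or median-of-ratios factors).

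After estradiol withdrawal the actin genes took a growing share of the transcripts, which was 2.88% of UMIs at 48 h and 4.36% at 96 h. The share was 1.04% and then 1.21% in CAF-1 OFF. Summed over the 10 genes, the level was 1.04-fold the 0 h level (exact 95% counting interval 1.02 to 1.05) at 48 h and 1.21-fold (1.2 to 1.23) at 96 h of CAF-1 OFF. In HOXA9 OFF the sum was 3.15-fold (3.12 to 3.19) and 4.77-fold (4.72 to 4.83) higher. Both later libraries of an arm are set against the same 0 h library, and all intervals cover counting error only, not differences between cultures or cells. Without Tmsb4x the sum in CAF-1 OFF was below its 0 h level, by 1.2-fold and 1.27-fold, and in HOXA9 OFF it was 1.63-fold and 2.44-fold above.

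A gene was called by size, at 2-fold on CPM with 10 added. At 48 h of CAF-1 OFF 0 of the 10 were called, against 2.76% of all genes at least 2-fold higher and 0.0418% at least 2-fold lower. At 96 h Tmsb4x was the 1 gene called higher and 0 were called lower, against 5.22% and 0.856% of all genes. At 48 h of HOXA9 OFF 4 genes were at least 2-fold higher (Tmsb4x, Arpc1b, Coro1a, Lcp1) and 1 was lower (Tmsb10), against 13.0% higher and 19.6% lower over all genes. At 96 h 7 were higher (with Pfn1, Actb and Msn added), Tmsb10 was lower, and Actg1 and Cfl1 were under 2-fold, against 18.1% higher and 39.8% lower. The members' median log2 ratio in HOXA9 OFF was 0.87 at 48 h and 1.54 at 96 h, where that of all genes was -0.23 and -0.56. The CAF-1 OFF medians were -0.11 and -0.15, beside 0.0 and -0.08 for all genes.

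How all genes split in HOXA9 OFF varied with the scaling. With TMM factors 16.6% of genes were higher and 13.8% lower at 48 h, and 24.3% and 31.1% at 96 h. Median-of-ratios factors gave 25.5% and 29.5% at 96 h, and leaving mitochondrial and ribosomal protein genes out of the total gave 14.2% and 48.6%. The median of all genes was then 0.02 at 48 h and -0.19 at 96 h with TMM factors, -0.03 and -0.12 with median-of-ratios factors, and -0.26 and -0.94 without those genes. Under TMM and median-of-ratios factors 9 members lay above their 0 h level at both times and Tmsb10, still below it, was no longer 2-fold lower.

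The late granulocyte marker sum was higher at each later time in both arms. The members' sum was higher as well, but without Tmsb4x it was below 0 h in CAF-1 OFF. The 8 markers (S100a8, S100a9, Ltf, Ly6g, Camp, Ngp, Lcn2, Mmp8) summed to 28.2 CPM at 0 h, 10308 CPM at 48 h and 143674 CPM at 96 h of HOXA9 OFF, with 4, 8 and 8 of the 8 detected, and to 33.0, 715 and 1182 CPM in CAF-1 OFF, with 2, 7 and 6 detected. Most of the CAF-1 OFF sum at 48 and 96 h was Mmp8 (582 and 724 CPM) and Lcn2 (117 and 428 CPM). Each other marker stood at 0 to 22.4 CPM in that arm. At 0 h S100a9, Ltf, Ly6g and Ngp were at 0 UMIs in both clones. The eosinophil markers Prg2 and Epx summed to 876, 16673 and 3022 CPM in HOXA9 OFF and to 141, 270 and 879 CPM in CAF-1 OFF. Nearly all of both sums was Prg2. Epx stood at 0, 44.8 and 1.70 CPM in HOXA9 OFF and at 0.475, 0.179 and 0 CPM in CAF-1 OFF. The 3 megakaryocyte markers (Pf4, Itga2b, Ppbp) went from 25.9 to 428 to 2565 CPM in CAF-1 OFF and stayed at 13.9 to 33.3 CPM in HOXA9 OFF. The mast cell or basophil markers Cpa3 and Mcpt8 summed to 249, 1408 and 3972 CPM in CAF-1 OFF, beside 655, 402 and 10.2 CPM in HOXA9 OFF. The 8 cell cycle markers summed to 2415, 685 and 25.5 CPM in HOXA9 OFF and to 2316, 2255 and 1806 CPM in CAF-1 OFF. Of the 3 monocyte markers, Csf1r stood at 0, 57.6 and 114 CPM and Ms4a6c at 5.49, 125 and 226 CPM in HOXA9 OFF, where Ccr2 went from 348 to 60.6 to 69.0 CPM and the sum was 353, 243 and 409 CPM. In CAF-1 OFF that sum was 516, 348 and 235 CPM. The progenitor sum went from 6286 to 3891 to 94.8 CPM in HOXA9 OFF and from 7142 to 8646 to 11066 CPM in CAF-1 OFF. These markers split in CAF-1 OFF. Ctsg went from 3472 to 5951 CPM between 0 and 96 h, Mpo from 1451 to 2415 and Prtn3 from 1281 to 1874. Cd34 (756 to 707 CPM), Kit (82.8 to 55.6) and Flt3 (99.4 to 63.0) were lower at 96 h. At 48 h of HOXA9 OFF Prtn3 was above 0 h (1181 to 2088 CPM) and the others were below. The median mitochondrial share of a cell's UMIs was 5.07%, 4.77% and 1.90% in HOXA9 OFF and 5.06% to 5.81% in CAF-1 OFF. The part of any of these cell types or shares in the members' levels was not tested. Leaving the late granulocyte markers out of the library total, an alternative chosen after the data were seen, gave 8 members higher (Actg1 added) and 1 lower at 96 h of HOXA9 OFF. Over all genes 20.8% were then higher and 36.3% lower.

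The monomer-binding genes diverged. Tmsb4x, which encodes the main monomer-sequestering peptide, thymosin beta 4, stood at 2574, 4172 and 6283 CPM at 0, 48 and 96 h of CAF-1 OFF. In HOXA9 OFF it stood at 2223, 17524 and 26787 CPM. It was higher at each later time in both arms, 1.62-fold (1.58 to 1.66) and 2.44-fold (2.39 to 2.50) in CAF-1 OFF, beside 7.88-fold (7.72 to 8.05) and 12.0-fold (11.8 to 12.3) in HOXA9 OFF. Among all genes it ranked 73rd, 37th and 9th by level in CAF-1 OFF, beside 84th, 1st and 3rd in HOXA9 OFF. It supplied 25.7% of the members' UMIs at 0 h of CAF-1 OFF, beside 51.8% at 96 h, and 24.3% and 61.4% in HOXA9 OFF.

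Tmsb10 encodes thymosin beta 10, the close relative of thymosin beta 4, and went the other way. It stood at 286, 248 and 166 CPM in CAF-1 OFF, lower by 1.15-fold and 1.72-fold. In HOXA9 OFF it stood at 278, 125 and 99.6 CPM, lower by 2.22-fold and 2.79-fold. The paralogs thus parted in both arms, with no overlap of counting intervals between 0 h and any later library for either gene. Tmsb4x gave 9.0 and 8.0 UMIs for each Tmsb10 UMI at 0 h in the CAF-1 OFF and HOXA9 OFF clones. The ratio was 16.8 and 37.8 at 48 and 96 h of CAF-1 OFF, beside 140 and 269 in HOXA9 OFF, and being a ratio within a library it does not depend on the scaling. Profilin, encoded by Pfn1, lay at 1015, 972 and 1066 CPM in CAF-1 OFF, within 1.05-fold of 0 h either way. In HOXA9 OFF Pfn1 stood at 1038, 1202 and 2112 CPM, 1.16-fold and 2.04-fold higher.

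In CPM the cytoplasmic actins were below their 0 h level in CAF-1 OFF and above it in HOXA9 OFF. Beta-actin, Actb, stood at 1759, 1567 and 1411 CPM in CAF-1 OFF, lower by 1.12-fold and 1.25-fold. In HOXA9 OFF Actb stood at 1542, 2687 and 5599 CPM, higher by 1.74-fold (1.69 to 1.79) and 3.63-fold (3.53 to 3.73). Gamma-actin, Actg1, whose protein differs from beta-actin at a few residues, stood at 1147, 713 and 711 CPM in CAF-1 OFF, lower by 1.61-fold at both times. In HOXA9 OFF Actg1 stood at 980, 1863 and 1702 CPM, higher by 1.90-fold (1.83 to 1.97) and 1.74-fold (1.67 to 1.81). From 48 to 96 h of HOXA9 OFF Actb was 2.08-fold higher and Actg1 was at 0.914-fold.

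The balance of the actin pair differed between the libraries. There were 1.53, 2.20 and 1.98 Actb UMIs per Actg1 UMI in CAF-1 OFF, beside 1.57, 1.44 and 3.29 in HOXA9 OFF. Actb counts also moved with the letters of the cell barcode (below), so ratios with Actb depend on the cells counted. In cells with 0 to 8 A or T bases in the barcode, CAF-1 OFF gave Actb at 1448, 1236 and 1137 CPM. Actg1 was at 1144, 702 and 721 CPM. In HOXA9 OFF these cells gave 1214, 1810 and 3672 CPM for Actb, beside 1010, 1853 and 1728 CPM for Actg1. UMIs of the monomer-binding trio Tmsb4x, Tmsb10 and Pfn1 per UMI of the actin pair were 1.33, 2.37 and 3.54 in CAF-1 OFF, beside 1.40, 4.14 and 3.97 in HOXA9 OFF. Mouse Actb and Actg1 have processed pseudogenes of like sequence, so their reads may be split or dropped in counting and their levels are uncertain to that degree. Of the other actins, the smooth muscle gene Acta2 was listed at 0.949, 42.0 and 27.4 CPM in CAF-1 OFF, beside 1.19, 7.72 and 24.1 CPM in HOXA9 OFF, while the other 4 (Acta1, Actc1, Actg2, Actbl2) had 0 UMIs in every library. The 4 stromal and smooth muscle markers (Col1a1, Col1a2, Col3a1, Myh11) summed to 0 to 1.42 CPM in the 6 libraries.

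Cofilin was the member with the steadiest CPM in HOXA9 OFF. Per cell it was lower by 2.63-fold and 4.39-fold at 48 and 96 h. Cfl1, which encodes the non-muscle severing and depolymerising factor, stood at 1383, 971 and 725 CPM in CAF-1 OFF, lower by 1.42-fold (1.37 to 1.48) and 1.91-fold (1.83 to 1.99). In HOXA9 OFF it stood at 1362, 1212 and 1179 CPM, 1.12-fold and 1.16-fold lower, a direction that turned under TMM factors (log2 ratio 0.13 and 0.28) and under median-of-ratios factors (0.07 and 0.35). Its relative Dstn, destrin, stood at 148, 296 and 492 CPM in CAF-1 OFF, beside 147, 1008 and 796 CPM in HOXA9 OFF. Cfl1 UMIs per Dstn UMI therefore went from 9.32 to 3.28 to 1.47 in CAF-1 OFF and from 9.27 to 1.2 to 1.48 in HOXA9 OFF, reaching like values at 96 h in both arms. Per Actb UMI there were 0.79, 0.62 and 0.51 Cfl1 UMIs in CAF-1 OFF, beside 0.88, 0.45 and 0.21 in HOXA9 OFF.

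In CPM the branching and coronin genes were near their 0 h level in CAF-1 OFF and above it in HOXA9 OFF. Arpc1b, the Arp2/3 subunit isoform prominent in blood cells, stood at 1188, 1030 and 999.9 CPM in CAF-1 OFF, lower by 1.15-fold and 1.19-fold. In HOXA9 OFF it stood at 1066, 2679 and 3240 CPM, 2.51-fold (2.43 to 2.60) and 3.04-fold (2.94 to 3.15) higher. The other isoform of that subunit, Arpc1a, gave 1 UMI for each 6.40, 7.86 and 8.0 Arpc1b UMIs in CAF-1 OFF, beside 5.67, 10.4 and 17.4 in HOXA9 OFF. Coro1a, the blood-cell coronin that works with Arp2/3 and cofilin, stood at 424, 420 and 409 CPM in CAF-1 OFF, with counting intervals of both ratios that included 1. In HOXA9 OFF Coro1a stood at 422, 987 and 1574 CPM, 2.34-fold (2.22 to 2.47) and 3.73-fold (3.54 to 3.94) higher.

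Lcp1, or L-plastin, bundles filaments in leukocytes, and it shared with Tmsb4x a higher level in both arms. It stood at 156, 181 and 258 CPM in CAF-1 OFF, 1.17-fold (1.06 to 1.29) and 1.66-fold (1.51 to 1.82) higher. In HOXA9 OFF it stood at 157, 398 and 1127 CPM, 2.54-fold (2.33 to 2.78) and 7.20-fold (6.63 to 7.83) higher, which took it from 974th to 125th place among all genes. The step from 48 to 96 h, 2.83-fold, was larger for Lcp1 than for any other member in HOXA9 OFF. Moesin, encoded by Msn, links filaments to the plasma membrane and had the lowest level of the members at 0 h. It stood at 72.1, 88.6 and 88.4 CPM in CAF-1 OFF, which was 1.23-fold above 0 h at both times. In HOXA9 OFF it stood at 73.7, 138 and 223 CPM, 1.87-fold (1.64 to 2.15) and 3.02-fold (2.65 to 3.46) higher.

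Counted per cell, most of these differences in HOXA9 OFF were smaller or turned. Mean UMIs per cell of Tmsb4x went from 19.7 to 66.3 to 62.5 in HOXA9 OFF, 3.37-fold and 3.17-fold higher, and from 16.8 to 25.2 to 37.2 in CAF-1 OFF. Actb counted 13.7, 10.2 and 13.1 UMIs per cell in HOXA9 OFF and Coro1a 3.74, 3.74 and 3.67, so neither was above its 0 h level per cell. Lcp1 was the other member above 0 h per cell at 96 h, at 1.39, 1.5 and 2.63 UMIs.

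The remaining genes were below their 0 h level per cell at 96 h of HOXA9 OFF. Cfl1 stood at 12.1, 4.58 and 2.75 UMIs per cell, Pfn1 stood at 9.19, 4.55 and 4.93, and Actg1 at 8.68, 7.05 and 3.97. Tmsb10 was at 2.46, 0.47 and 0.23 UMIs per cell, lower by 5.19-fold and 10.6-fold. All 10 genes together counted 81.0, 109 and 102 UMIs per cell in HOXA9 OFF, and 65.2, 62.5 and 71.8 in CAF-1 OFF. UMIs per cell depend on both the RNA of a cell and the depth of the library, which cannot be told apart here.

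**Figure D2:**
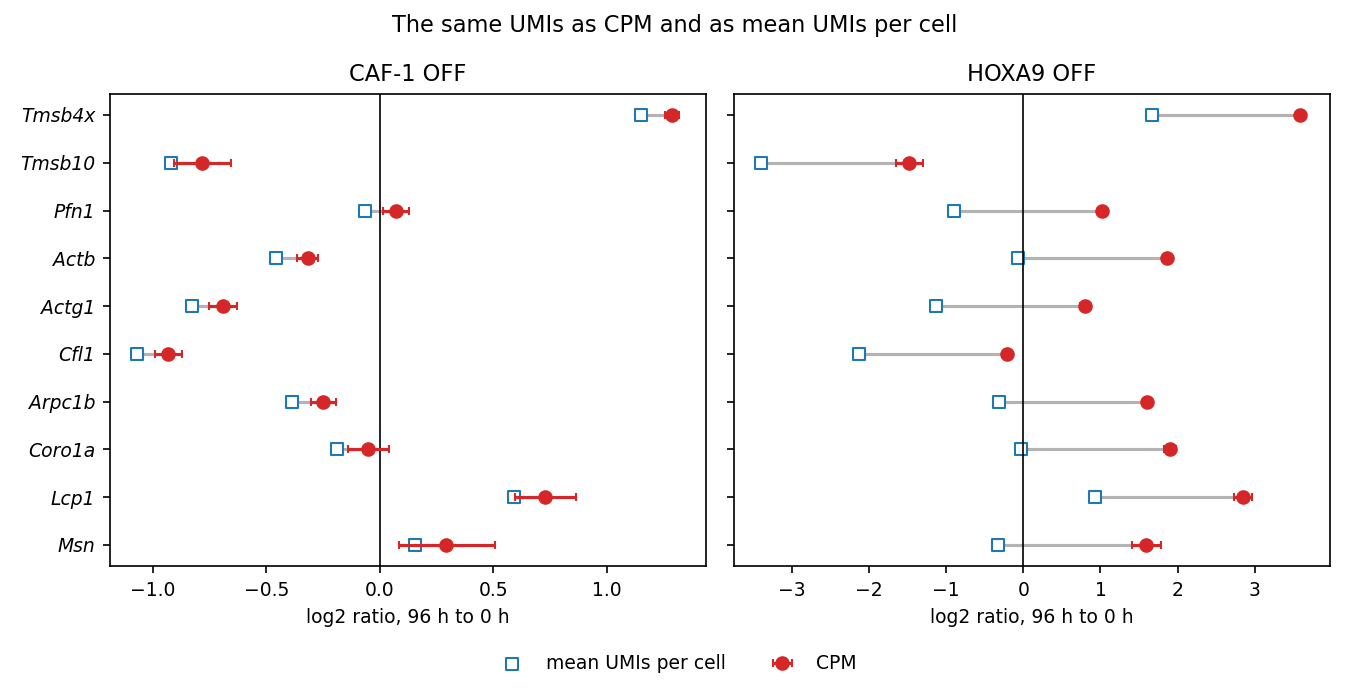
Log2 ratio of the 96 h to the 0 h library for each gene, as CPM (circles, exact 95% counting intervals) and as mean UMIs per cell (squares), with a wider x axis for HOXA9 OFF than for CAF-1 OFF. In HOXA9 OFF Tmsb4x and Lcp1 lie above 0 on both measures and Tmsb10 and Cfl1 below 0 on both (Cfl1 turns above 0 as CPM under TMM and median-of-ratios factors), whereas the other 6 lie above 0 as CPM and below it per cell.

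Cells were also compared at equal depth, where mean counts are shares of UMIs, so they follow CPM by construction and add no separate check. Each cell with at least 1300 UMIs was thinned to 1300, which left out 9 to 20 cells of each CAF-1 OFF library and 1, 28 and 134 cells at 0, 48 and 96 h of HOXA9 OFF. Thinned cells held on average 2.81, 24.1 and 35.6 Tmsb4x UMIs in HOXA9 OFF and 3.28, 5.64 and 8.55 in CAF-1 OFF. Actb and Tmsb4x had the largest variance over the mean of the thinned counts, and also the highest mean counts. For a given relative spread between cells this ratio is larger where the mean is higher, so it does not separate spread from level. At 48 h of HOXA9 OFF Actb and Arpc1b had like means (3.80 and 3.65) with ratios of 6.69 and 1.18. The variance over the mean of the thinned counts, which is near 1 when counting alone spreads the cells, was 0.906 to 1.57 for the other 8 genes over the 6 libraries. For Tmsb4x it was 1.87, 2.92 and 3.43 in CAF-1 OFF, beside 1.66, 3.97 and 3.07 in HOXA9 OFF, and for Actb 3.44, 3.14 and 2.95 in CAF-1 OFF, beside 3.82, 6.69 and 12.0 in HOXA9 OFF.

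Within the 48 h library of CAF-1 OFF, Tmsb4x and Lcp1 were higher in the cells that carried more Elane, Pf4 or late granulocyte RNA. Cells were ranked by the share of a marker's UMIs and the top and bottom quartiles were compared by CPM without the marker genes, as a description, since cells are not replicates. At 48 h of CAF-1 OFF Tmsb4x was 2.10-fold higher in the top than in the bottom quartile by the granule protease gene Elane, 1.93-fold by Pf4 and 2.08-fold by the late granulocyte markers. The late granulocyte marker UMIs of that library were mostly Mmp8 and Lcn2. Lcp1 was 1.76-fold, 1.56-fold and 1.69-fold higher by the same rankings, whereas Actb (0.918-fold, 1.02-fold and 1.0-fold) and Arpc1b (1.00-fold, 1.05-fold and 1.05-fold) differed little. At 96 h of CAF-1 OFF the top quartile by Pf4 held Tmsb4x at 1.06-fold and Lcp1 at 1.44-fold. By Elane they were at 1.46-fold and 1.24-fold, and by late granulocyte markers at 1.35-fold and 1.21-fold.

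In HOXA9 OFF the direction varied with the ranking. At 48 h the top quartile by late granulocyte markers was higher 1.91-fold for Tmsb4x, 1.93-fold for Actb, 1.58-fold for Coro1a and 1.46-fold for Lcp1, and 1.11-fold for Arpc1b. By the eosinophil gene Prg2 the same library gave 0.762-fold for Tmsb4x, 0.70-fold for Actb and 0.926-fold for Lcp1, and by Elane it gave 1.0-fold, 0.905-fold and 0.689-fold. Per cell Arpc1b turned to 0.802-fold by late granulocyte markers, and Actb to 1.26-fold by Elane, where Tmsb4x was at 1.41-fold. At 96 h the top quartile by late granulocyte markers held Lcp1 at 1.79-fold, Actb at 1.35-fold, Tmsb4x at 1.21-fold and Tmsb10 at 0.511-fold. Per cell the first 3 turned, to 0.977-fold for Lcp1, 0.740-fold for Actb and 0.662-fold for Tmsb4x, and Tmsb10 was at 0.279-fold. By the cell cycle markers Tmsb4x was at 0.763-fold and 0.853-fold in the CAF-1 OFF and HOXA9 OFF 0 h libraries, 0.678-fold and 0.807-fold at 48 and 96 h of CAF-1 OFF, beside 0.953-fold at 48 h of HOXA9 OFF. Per cell the direction turned in 4 of these 5 libraries, with 1.02-fold and 1.14-fold at 0 h, 1.17-fold at 96 h of CAF-1 OFF and 1.44-fold at 48 h of HOXA9 OFF, and stayed at 48 h of CAF-1 OFF (0.863-fold).

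The Actb level of a cell moved with the letters of its barcode, a pattern looked at after the spread of Actb had been seen. The 5% of cells with the highest Actb share held 19.7% to 27.7% of all Actb UMIs in the 6 libraries, against 9.50% to 12.4% for Actg1. Members with few UMIs per cell reached like shares, Msn 19.4% to 23.9% and Tmsb10 28.2% and 56.4% at 48 and 96 h of HOXA9 OFF. Of these top cells 46.9%, 45.7% and 67.4% in CAF-1 OFF, beside 70.8%, 75.4% and 73.9% in HOXA9 OFF carried a 16-base barcode with 10 or more A or T bases, where 9.79% to 11.4% of the remaining cells did. For the other 9 members 3.12% to 21.7% of the top cells were in that class. In the top Actb cells 10 other genes were at least 2-fold higher in all 6 libraries, led by Notch2 (7.93-fold to 23.7-fold) and Slc39a1 (7.92-fold to 15.4-fold), while for the top cells of each other member 0 genes were.

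Cells with 10 to 16 A or T bases in the barcode were compared with those with 0 to 8 in each library. Actb was 2.55-fold (2.41 to 2.69), 2.56-fold and 2.68-fold higher in the A/T-rich class in CAF-1 OFF, beside 2.99-fold, 4.02-fold and 3.92-fold (3.80 to 4.04) higher in HOXA9 OFF. The other 9 members ranged from 0.628-fold to 1.38-fold, with a median of 0.983. In all 6 libraries the A/T-rich class was at least 2-fold higher for 6 of the 4789 genes (0.125%) and lower for 0. These were Notch2, Rpgrip1, Zc3hav1, Gnb1, Cbx3 and Actb, which had the highest level among them.

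The time course of Actb kept its direction in both barcode classes, with other sizes. In cells with 0 to 8 A or T bases Actb was 0.854-fold and 0.785-fold its 0 h level in CAF-1 OFF, beside 1.49-fold (1.43 to 1.55) and 3.02-fold (2.91 to 3.15) in HOXA9 OFF. In cells with 10 to 16 the values were 0.859-fold, 0.827-fold, 2.00-fold and 3.96-fold. The number of members called in any comparison was the same when cells with at most 8 A or T bases alone were used. Even within the 0 to 8 class the variance over the mean of thinned Actb counts was 2.24 to 7.14, above the 0.906 to 1.57 of the other members except Tmsb4x over all cells. Why Actb counts move with barcode letters was not tested.

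**Figure D3:**
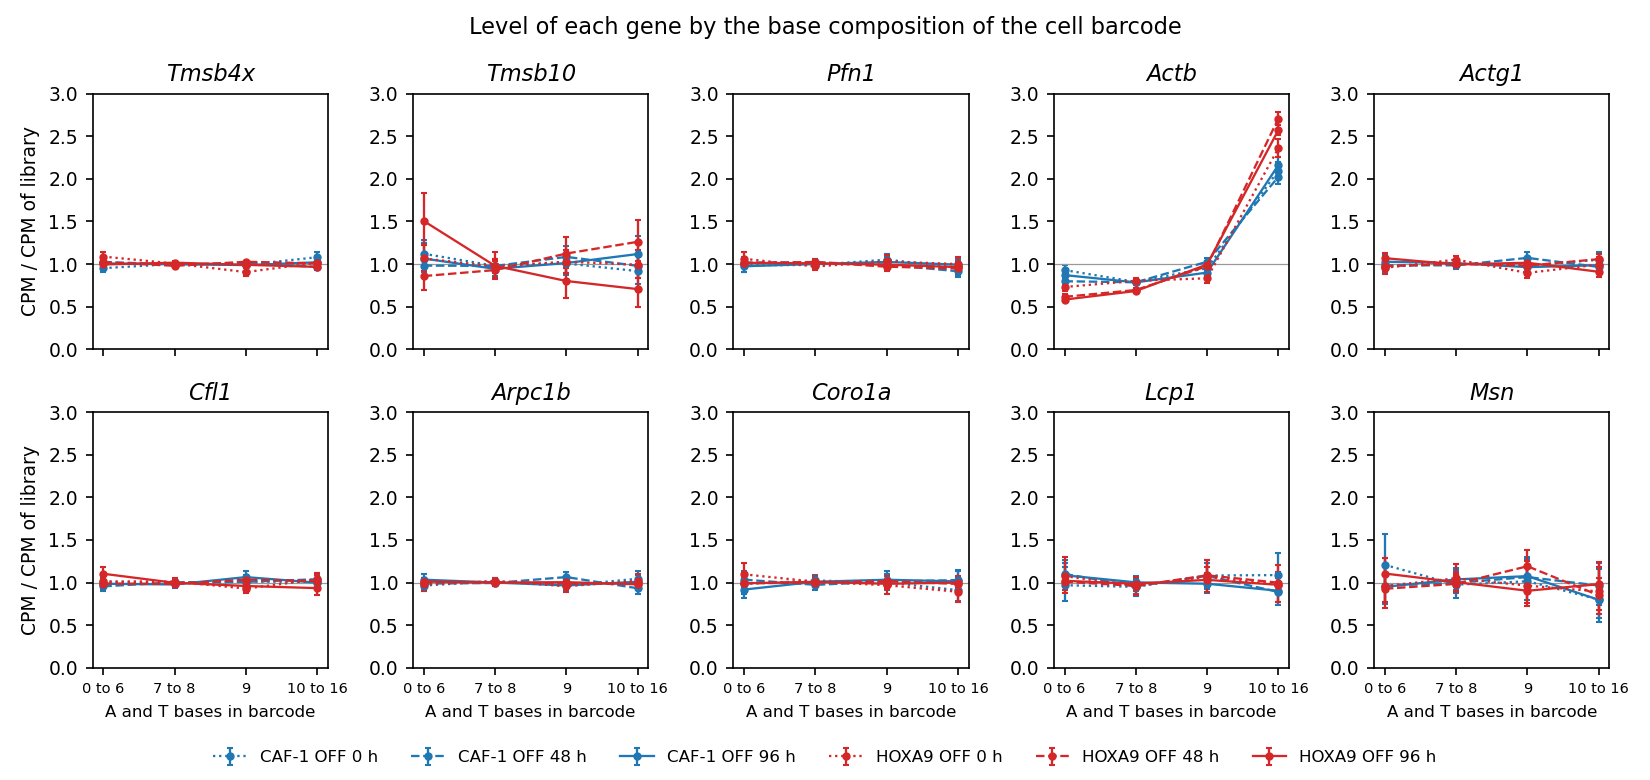
CPM of each gene in cells grouped by the number of A and T bases in the 16-base cell barcode, divided by its CPM in the whole library, with exact 95% counting intervals, for the 6 libraries (CAF-1 OFF blue, HOXA9 OFF red). Actb is 2.55-fold to 4.02-fold higher at 10 to 16 A or T bases than at 0 to 8, and the other 9 genes lie between 0.628-fold and 1.38-fold.

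A wider list of 113 cytoskeleton genes in 10 classes, 74 of them with a mean of at least 20 CPM, placed the members among their partners. In CAF-1 OFF 1 of the 74 (1.35%) was at least 2-fold higher at 48 h and 4 (5.41%) at 96 h, where 2.76% and 5.22% of all genes were, so the share at 96 h was near that of all genes. None of the 74 was lower, against 0.0418% and 0.856% of all genes. In HOXA9 OFF 23 (31.1%) were higher and 3 (4.05%) lower at 48 h, and 36 (48.6%) higher and 5 (6.76%) lower at 96 h. Over all genes the shares were 13.0% and 19.6% at 48 h and 18.1% and 39.8% at 96 h. The median log2 ratio of the list was 0.04 and -0.02 in CAF-1 OFF, beside 0.59 and 0.94 in HOXA9 OFF. Among the genes higher at 96 h of CAF-1 OFF were Dstn, the calponin Cnn2 and the tropomyosin Tpm4. Tpm4 was the gene called at 48 h.

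Of 8 further Arp2/3 genes, the partners of Arpc1b, 2 were called higher at 48 h of HOXA9 OFF and 4 at 96 h (Actr2, Actr3, Arpc2, Arpc5), with 0 lower, against 18.1% of all genes higher and 39.8% lower at 96 h. Arpc2 stood at 414, 1206 and 1649 CPM, Arpc5 at 175, 545 and 802 CPM and Actr3 at 443, 821 and 1245 CPM. In CAF-1 OFF 0 of the 8 were called and their median log2 ratio at 96 h was -0.31. Against the same shares of all genes, 4 of the 9 nucleation-promoting factors were higher at 96 h of HOXA9 OFF, as were both of the 7 listed formins that reached 20 CPM on average, and Fmnl1 stood at 8.83, 28.1 and 83.4 CPM. Rac2, the blood-cell Rac, stood at 496, 1106 and 1392 CPM in HOXA9 OFF and at 472, 422 and 437 CPM in CAF-1 OFF.

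Cfl1 was not called in HOXA9 OFF, whereas some other turnover and capping genes were. Of 7 monomer-binding and turnover genes 5 were higher at 96 h of HOXA9 OFF (Dstn, Twf2, Cap1, Wdr1, Ssh2) and 0 lower. Over all genes 18.1% were higher and 39.8% lower at that time. Of 8 capping and severing genes 4 were higher, among them gelsolin, Gsn, at 47.3, 241 and 465 CPM and Capg at 71.6, 113 and 598 CPM. The heterodimeric capping protein gene Capzb was level at 461, 456 and 442 CPM.

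Of the 16 bundling and side-binding genes 6 were higher and 3 lower at 96 h of HOXA9 OFF, against 18.1% and 39.8% of all genes. The calponins split, Cnn2 from 22.7 to 230 to 415 CPM and Cnn3 from 108 to 3.77 to 0 CPM. Tagln2, transgelin 2, was at 655, 451 and 85.1 CPM, and the crosslinker Actn1 at 11.9, 35.6 and 171 CPM. Of the 6 myosin genes 3 were higher, with Myo1f, a leukocyte class I myosin, at 13.1, 125 and 231 CPM. Of the 7 membrane and adhesion linkers 2 were higher, Zyx and Vasp (80.4, 275 and 797 CPM), and 1 was lower, radixin (Rdx), a relative of moesin, at 149, 71.4 and 54.5 CPM while Msn was higher.

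**Figure D4:**
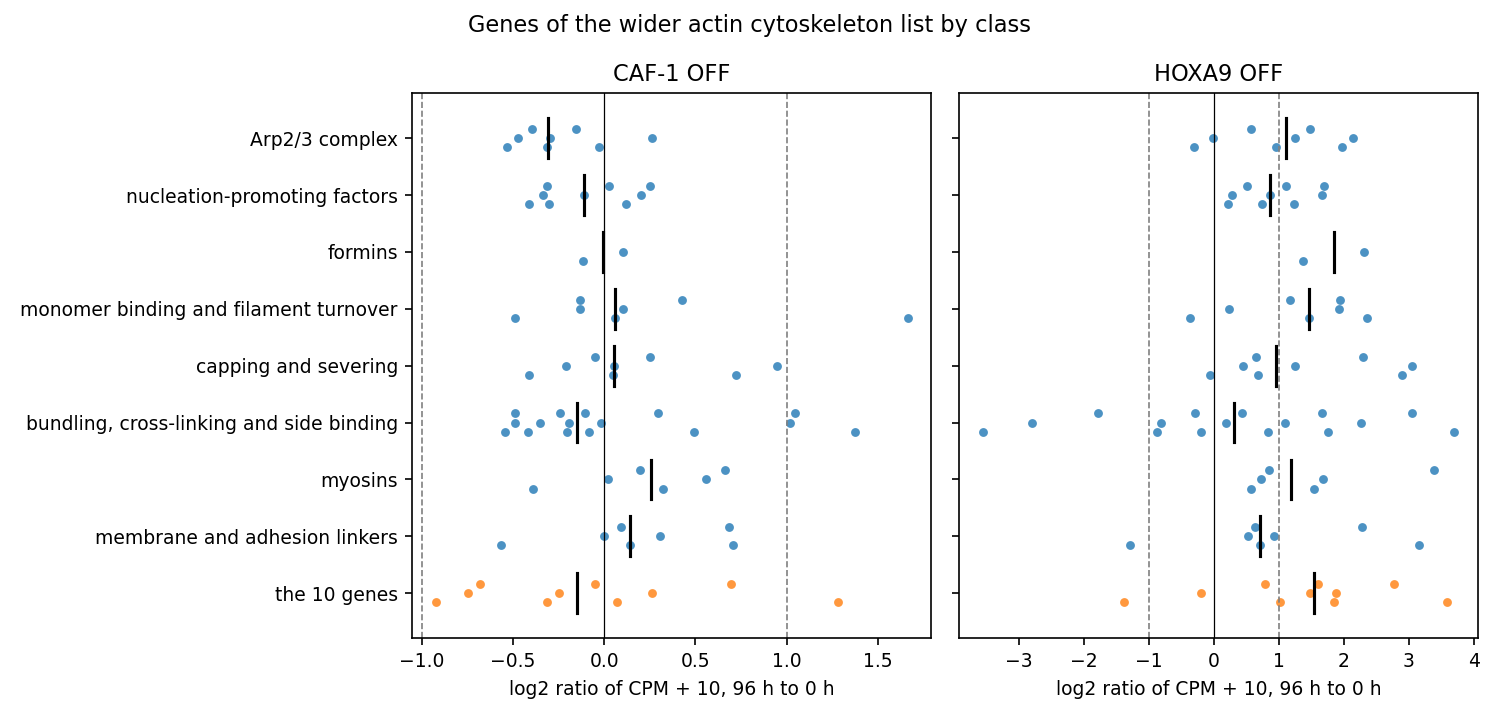
Log2 ratio of CPM + 10 of the 96 h to the 0 h library for genes of the wider list in the classes shown and for the 10 genes (orange), with the class median as a black bar and dashed lines at 2-fold. In HOXA9 OFF 6 of the 16 bundling and side-binding genes lie beyond the upper line and 3 beyond the lower, and in CAF-1 OFF 4 genes of the list lie beyond the upper line and 0 beyond the lower.

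The genes whose pattern over the 6 libraries was most like a member's were taken as those with the smallest Euclidean distance between centred log2(CPM + 10) values. Tmsb4x was closest to Prdx5 (distance 0.13), an antioxidant enzyme at 507, 862 and 1271 CPM in CAF-1 OFF, beside 456, 3844 and 5229 CPM in HOXA9 OFF, then to Gsr and Fgd4. Actb was closest to Cd44, Far1 and Mettl9, Arpc1b to Soat1, Rac2 and Sphk2, Coro1a to Atg7, Rnf167 and Snx10, and Lcp1 to Fosl2 and Cd82. Pfn1 was closest to Pdzd8, Rela and Zfand2b, Msn to Tbc1d20, Rap1b and Rnf114, Actg1 to Sys1, Arf5 and Pddc1, Cfl1 to Txndc17, Cirbp and G3bp2, and Tmsb10 to Hnrnph3, Ewsr1 and Hspa14. Within the 10 genes the closest pair was Arpc1b and Coro1a at 0.34, followed by Actb and Coro1a at 0.44. Tmsb4x had Lcp1 as its nearest member at 1.31 and Tmsb10 had Cfl1 at 1.41, so the thymosin genes stood farthest from the rest. The values were centred but not scaled, so these distances grow with the size of a change as well as with its shape. With 6 libraries in 2 arms they are descriptions.

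The positions of the members are those of RefSeq in GRCm38.p6. Tmsb4x is at chrX:167207093-167213479 and Msn at chrX:96096045-96168553, Actb at chr5:142903115-142907976 and Arpc1b at chr5:145114256-145128186, and Actg1 at chr11:120345687-120348495 and Pfn1 at chr11:70651844-70656799. Tmsb10 is at chr6:72957347-72958748, Coro1a at chr7:126699774-126704816, Lcp1 at chr14:75131105-75230842 and Cfl1 at chr19:5490455-5494031.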

How the data were processed

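The authors sorted live cells, made 10x Chromium 3′ v2 libraries, aligned reads to GRCm38 (mm10) with Cell Ranger (3.0.1 in the submitters' processing notes, whereas the methods name a later release) and deposited 1 table of raw UMI counts for 7821 barcodes and 27998 genes, with the 6 libraries joined by barcode suffix. Barcodes with 200 to 6000 genes and at most 10% mitochondrial UMIs were kept, the study's limits. All 1949 barcodes removed were over the mitochondrial limit. Counts were summed per library and divided by its total (CPM), since cells are not replicates and 1 library per group allows no test. A gene was called at 2-fold on log2(CPM + 10) among genes whose mean reached 20 CPM. Intervals are exact 95% Poisson intervals for levels and exact binomial (Clopper-Pearson) intervals for ratios and cover counting error only. The members, lists and quartile rankings were chosen with earlier results of these data known. Of the wider list and of the genes most like a member, the named ones are those of highest mean, largest ratio at 96 h or smallest distance, and some of these are not reported here. Doublets were left in. Scrublet (through scanpy 1.11.5) called 5 to 46 cells per library, and leaving those out was an alternative. In the HOXA9 OFF 96 h library it marked 0.331% of cells. Other alternatives were TMM factors (edgeR 4.0.16), median-of-ratios factors (DESeq2 1.42.0), other totals, pseudocounts, fold thresholds and level minimums, all barcodes and other thinning depths. The calls were tested on simulated counts with 200 genes changed by more than the 2-fold limit. Those counts held counting error only and no spread between cultures, so they cannot check the calls against it. Promoters came from RefSeq (GRCm38.p6). Python 3.11.15 and R 4.3.3 were used.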

Additional observations from a re-analysis of the deposited data

Results flagged for a closer look

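In CPM, Actb, Actg1 and Arpc1b were below their 0 h level at 48 and 96 h of CAF-1 OFF, whereas both HOXA9 OFF times were above it. The log2 CPM ratio to 0 h at 96 h was higher in HOXA9 OFF than in CAF-1 OFF by 2.18 for Actb, by 1.49 for Actg1 and by 1.85 for Arpc1b. Per cell the HOXA9 OFF values turned below 0 h for Actb (0.744-fold at 48 h and 0.956-fold at 96 h) and Actg1 (0.812-fold and 0.458-fold), and for Arpc1b at 96 h (0.801-fold), with 1.07-fold at 48 h. These differences between the arms were not tested, as each arm has 1 library per time and the arms are different clones.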

How the results depend on the processing

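Over all settings tried on the counts of called genes and on the members' summed level, 151 values were close to the one reported (a count within 1.5 times, a ratio within its counting interval), 46 moved and 3 turned direction, and for single members 384 were close and 116 moved. For a single member a turn was counted only where the gene was called at 2-fold. Sign changes of uncalled members, as for Cfl1 in HOXA9 OFF, are among the values close or moved. Counts of called members were as follows. With a 1.5-fold limit CAF-1 OFF had 1 higher (Tmsb4x) and 1 lower (Actg1) at 48 h and 2 higher and 3 lower at 96 h, and HOXA9 OFF had 7 higher at 48 h. With a 4-fold limit CAF-1 OFF had 0 higher at 96 h, and HOXA9 OFF had 1 higher and 0 lower at 48 h and 2 higher and 0 lower at 96 h. The shares of all genes past the 1.5-fold and 4-fold limits were not computed, so these counts have no background beside them. TMM and median-of-ratios factors each gave 7 higher at 48 h and 0 lower at both times of HOXA9 OFF. With either, Actg1 also passed 2-fold at 96 h, where 24.3% and 25.5% of all genes were higher. Of all genes 16.6% and 15.6% were higher at 48 h with these factors, and 13.8% and 14.9% lower. Tmsb10 was also under 2-fold at 48 h with all barcodes or a pseudocount of 50, which left 0 lower. The wider list at 48 h of CAF-1 OFF had 2 genes higher with no level minimum. The summed log2 ratio at 48 h of CAF-1 OFF was 0.05, and -0.0117 with median-of-ratios factors, 0.0253 without mitochondrial and ribosomal protein genes and 0.0949 with all barcodes. At 96 h it was 0.28, and 0.36 with TMM factors, 0.30 with median-of-ratios factors, 0.33 with all barcodes and 0.29 with barcodes of at most 8 A or T bases. At 48 h of HOXA9 OFF it was 1.66, and 1.96 with TMM factors, 1.89 with median-of-ratios factors, 1.64 without mitochondrial and ribosomal protein genes, 1.69 with the members left out of the total, 1.81 with all barcodes and 1.64 with barcodes of at most 8 A or T bases. At 96 h it was 2.26, and in the same order 2.74, 2.82, 1.83, 2.31, 2.44 and 2.24, and 2.48 without late granulocyte markers. Between the clones at 0 h it was -0.13, and -0.0903 with TMM factors and -0.24 with all barcodes. Thinned to 1300 UMIs per cell, the log2 ratio was 0.08 and 0.33 for CAF-1 OFF, 1.71 and 2.25 for HOXA9 OFF, and -0.09 for the clones. Without thinning these were -0.0604, 0.14, 0.43, 0.33 and 0.31, as cells then differ in depth, and at 2600 UMIs the CAF-1 OFF value at 96 h was 0.31 and the HOXA9 OFF values were 1.65 and 2.19. That depth left out 6, 290 and 1084 cells at 0, 48 and 96 h of HOXA9 OFF. Its 96 h value thus rests on the 426 cells with the most UMIs. The cause of the other moves was not tested. No paired analysis was possible because each group has 1 library. The totals without late granulocyte markers and the barcode limit were chosen after seeing the data.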
